A study of Mus musculus with 16 samples.

Results

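Non-classical monocytes were picked out of the leukocytes of mouse B16 melanomas by the transcripts of Ace, which encodes angiotensin-converting enzyme, and Treml4, a triggering-receptor family member of the myeloid surface. A droplet barcode counted as a member when it held at least 2 unique molecular identifiers (UMIs, each 1 captured transcript molecule) of Ace and Treml4 together and at least 1 UMI of Csf1r, the receptor for colony-stimulating factor 1. It also had to hold at most 1 UMI of Nos2, at most 5 of C1qa, C1qb and C1qc together, and 0 of Flt3, Cd3d and Cd3e. This left 213 members of 99357 barcodes that had at least 200 genes and at most 10% mitochondrial UMIs. The members were thus chosen from the measured values, and the levels of the rule's genes in them are a description of the rule, not a result.

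Non-classical monocytes arise largely from classical, Ly6C-high monocytes through the nuclear receptor NR4A1, and they crawl along the inner wall of vessels by means of the integrin LFA-1 and the chemokine receptor CX3CR1. They carry the activating Fc receptor encoded by Fcgr4, which binds IgG on coated cells. In tumours they are known as a sparse population beside the classical monocytes, which leave the blood through CCR2 and mature into macrophages. CD40, the receptor that the treatment engages, is a member of the TNF receptor family on antigen-presenting cells, and B2m encodes the light chain that MHC class I needs at the surface.

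All mice were C57BL/6J and carried a tumour grown under the skin from 1000000 cells of the Bro4.1 line of B16 melanoma. The implanted cells were control or B2m-null, and the mice were injected intraperitoneally with 100 mcg of anti-CD40 or of rat IgG2a, its isotype control, on days 6, 9 and 12, with collection on day 14. The sample labels give the genotype as that of the mouse (WT or B2M KO) whereas the series' design text places the loss in the implanted melanoma, which is followed here. Leukocytes were enriched on CD45 beads, tagged with 1 hashtag antibody per mouse and pooled by group. The data are 8 libraries from 7 pools and 16 mice: among mice with control tumours 5 received isotype and 2 anti-CD40, and among those with B2m-null tumours 5 received isotype and 4 anti-CD40. The 2 control CD40 libraries are technical replicates of 1 pool, so what is particular to that pool cannot be told apart from its group. Libraries held 46.0 to 99.3 M UMIs (M, 1000000). Any 2 of them shared 41 to 92 cell barcode sequences, and no barcode of a member was shared.

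Ace (chr11:105967945-105989964, plus strand, GRCm38) was seen without Treml4 in 55 members, Treml4 (chr17:48264295-48275360, plus strand) without Ace in 56, and both in 102. The sum of the pair had a median of 2 and a highest value of 9. There were 133 members with exactly 2 UMIs, just inside the threshold, and 382 barcodes with exactly 1 UMI that met every other criterion. In counts per 1000000 UMIs of the pooled cells (CPM), Ace stood at 252 and Treml4 at 244 just inside, and at 101 and 152 just outside. The neighbours outside already carried several other genes of the class at lower levels: Adgre4 stood at 214 CPM just inside and 107 CPM just outside, and Gngt2 at 749 and 440 CPM. Whether the barcodes just outside are members missed by sampling, other cells or a range between them was not tested.

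The label was checked on 12 genes that the rule did not use. They are Nr4a1, Fcgr4, Cx3cr1, Itgal, Spn, Ear2, Pglyrp1, Eno3, Gngt2, Adgre4, Cd300e and Pou2f2. A member held a median of 6 of them, and 200 of the 213 members (93.9%) held at least 3. T cells, taken as barcodes of the same libraries with at least 2 UMIs of Cd3d and Cd3e together and 0 of Csf1r, served as the background for free RNA, with a median of 2598 UMIs per cell against 2794 in members. They held a median of 2 of the markers, 33.7% of them held at least 3, and 5.64% held at least 5 against 71.8% of members. Adgre4, which encodes an adhesion receptor of the F4/80 family, had a UMI in 55.4% of members and 0.515% of T cells. Ear2, an eosinophil-associated ribonuclease, had one in 36.2% and 0.736%, and Gngt2, a G-protein gamma subunit, in 88.7% and 12.0%. Nr4a1 had one in 76.5% and 16.0%. Spn and Pglyrp1 did not separate the members from T cells, at 38.0% against 43.3% and 28.6% against 35.0%, and Itgal did so little, at 79.8% against 65.8%. A comparison with T cells cannot tell the members from other myeloid cells. Classical monocytes and C1q macrophages, defined below, had medians of 3425 and 6700 UMIs. They had a UMI of Adgre4 in 7.10% and 2.55% of cells, of Ear2 in 6.09% and 3.80%, and of Nr4a1 in 53.1% and 22.3%. Gngt2 had one in 33.2% and 48.1%, and Fcgr4 in 37.3% and 69.0% against 53.1% of members. Markers of the class were therefore present, though not all of them were particular to the members, and the name was kept.

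**Figure D1:**
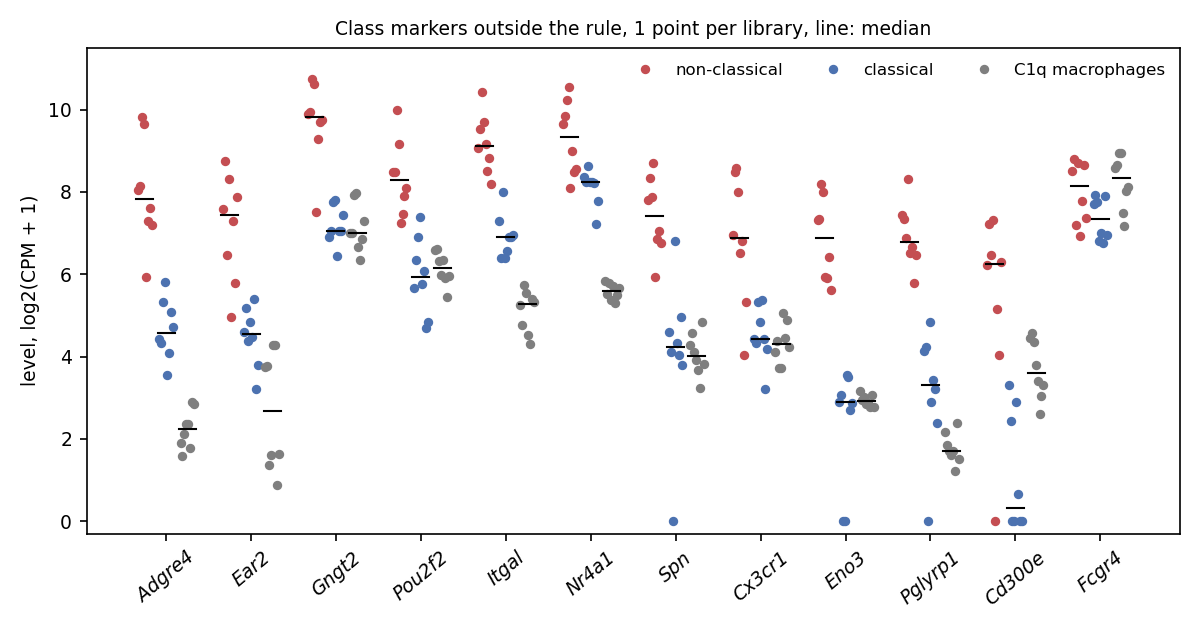
Levels of the 12 marker genes, as log2(CPM + 1), in non-classical monocytes, classical monocytes and C1q macrophages, with 1 point per library and a line at the median. Over all libraries Adgre4 stands at 241 CPM in members, 19.6 CPM in classical monocytes and 3.56 CPM in C1q macrophages, whereas Fcgr4 is nearly level between members (285 CPM) and macrophages (288 CPM).

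Members are described next by which gene of the pair was seen. The sum of the pair had a median of 2 UMIs, and the part of sampling in this split was not tested. The 55 with Ace alone, the 56 with Treml4 alone and the 102 with both had medians of 2348, 3902 and 2762 UMIs and of 6, 5 and 7 markers. H2-Aa, a chain of MHC class II, stood at 1123, 3280 and 1947 CPM in the same order. Cfb, which encodes complement factor B, stood at 160, 729 and 123 CPM, and Spn, the sialophorin CD43, at 113, 64.5 and 261 CPM. The libraries were mixed unevenly in this: B2m-null CD40, where Cfb and H2-Aa were high, gave 6, 26 and 20 of these members. Within it Cfb stood at 817, 1432 and 424 CPM and H2-Aa at 1291, 4496 and 3165 CPM. In the other 6 libraries Cfb stood at 17.2, 127 and 45.0 CPM (3, 17 and 14 UMIs) and H2-Aa at 1087, 2238 and 1633 CPM, without a test of either. The members with Ace alone include barcodes rich in stromal genes, described below. In B2m-null CD40 these held 6743 and 16296 of the 37966 UMIs of the Ace-alone members, and in the other libraries 42650 of 174839. Levels without them were not computed. The balance of the pair also differed between libraries: Treml4 alone marked 13 of 21 members of the second B2m-null CD40 pool and Ace alone marked 1, while in the first control isotype pool they marked 11 and 16 of 52. Ace stood at 424 and 545 CPM in the control isotype pools, 702 and 637 CPM in the control CD40 libraries, 330 and 276 CPM under B2m-null isotype, and 278 and 96.9 CPM under B2m-null CD40. These levels of a rule gene carry no test.

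Transcripts that define other cell types were looked for in the same members. T cell genes had at least 1 UMI in 18 members and at least 10 in none, and their summed level ranged from 0 to 120 CPM over the libraries. Natural killer genes had a UMI in 8 members (0 to 117 CPM), melanoma genes in 33 (0 to 120 CPM) and basophil genes in 2. B cell genes had one in 52 members (29.1 to 221 CPM), with Pax5 at 0 in every member. Neutrophil genes had one in 61 members and 10 or more in 13, and ranged from 63.7 to 3388 CPM. Conventional dendritic cell genes ranged from 0 to 720 CPM, plasmacytoid dendritic cell genes from 117 to 803 CPM and megakaryocyte genes from 0 to 401 CPM.

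Hashtags called 27 of the 213 members doublets, 12 of 76 under control isotype, 2 of 30 under control CD40, 11 of 55 under B2m-null isotype and 2 of 52 under B2m-null CD40. They are kept in library shares and pool sums and left out of sums by mouse. Some members carried much of another type's transcripts. Besides the 13 with 10 or more neutrophil UMIs, 9 had 10 or more of plasmacytoid and 3 of conventional dendritic cell genes, and 13 members held fewer than 3 of the 12 markers. Stromal genes reached 10 UMIs in 3 barcodes, which held 4, 1 and 5 of the markers. Each had Ace at 2 UMIs and Treml4 at 0, and they held 106, 207 and 139 UMIs of the stromal genes Col1a1, Col3a1, Dcn, Pdgfrb, Cdh5 and Kdr. The barcode of B2m-null isotype replicate 2 mouse 2 had 74 UMIs of the endothelial cadherin Cdh5 among 42650, and it alone made up 42.4% of all member UMIs of that mouse. The other pair came from B2m-null CD40 replicate 1 and had 97 and 72 UMIs of the collagen gene Col3a1. A stromal cell and a droplet with a mixed content cannot be told apart here. Stromal genes stood between 0 and 2694 CPM over the libraries. The results below keep these barcodes, as the rule does, and give the counts without them.

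The first question was how common the cells were in each group. Members made up 0.332% of kept barcodes in control isotype replicate 1 (52 of 15652, 95% Wilson interval 0.253% to 0.435%) and 0.225% in replicate 2 (24 of 10656, 0.151% to 0.335%). The control CD40 libraries had 0.124% (16 of 12867) and 0.103% (14 of 13623). B2m-null isotype had the lowest and the highest library, at 0.0659% (8 of 12139) and 0.399% (47 of 11786), whose 95% intervals did not overlap. B2m-null CD40 had 0.290% (31 of 10707) and 0.176% (21 of 11927). The spread between the 2 pools of B2m-null isotype was thus as wide as the whole range of the study. The intervals cover counting error only.

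By mouse, the share was 0.383%, 0.245%, 0.400%, 0.212% and 0.237% with control tumours under isotype and 0.0955% and 0.119% under CD40, so these groups did not overlap. Their means were 0.296% ± 0.0888 (SD, n = 5) and 0.107% ± 0.0169 (SD, n = 2). The difference of -0.188 percentage points had a two-sided exact permutation p of 0.0952, which is 0.328 after Benjamini-Hochberg adjustment over the 4 comparisons of shares, and 21 arrangements allow no p below 0.0476. When every barcode was thinned to 2000 UMIs, 64601 barcodes and 61 members were left. The means were then 0.0751% and 0.0791%, a difference of 0.0041 points in the other direction. Without thinning, members were 10 of 2036 barcodes holding Csf1r in the control isotype mouse at 0.212%. They were 21 of 4257 in the control CD40 mouse at 0.119%, so the groups overlapped on this base. With Ace plus Treml4 of 3 or more, the isotype mice had 6, 1, 2, 6 and 2 members and the CD40 mice 4 and 10, and their shares overlapped. Members had medians of 2114.5 and 1958.5 UMIs in the control CD40 libraries against 2555 and 2286.5 under control isotype.

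In mice with B2m-null tumours, the share was 0.0309%, 0.0858%, 0.164%, 0.417% and 0.280% under isotype and 0.203%, 0.448%, 0.122% and 0.308% under CD40, and the groups overlapped. The means were 0.196% ± 0.155 (SD, n = 5) and 0.270% ± 0.141 (SD, n = 4), with an exact permutation p of 0.468. The 3 lowest isotype mice all came from replicate 1, where each had 1 member among 3240, 1165 and 611 barcodes. Hashtags assigned 41.3% of the kept barcodes of that library to a mouse, and of its 8 members 3 were doublets and 2 unassigned. In B2m-null CD40 replicate 1 the rate was 56.8%, with 10 of 31 members unassigned, and elsewhere it was 69.9% to 90.3%. Without B2m-null isotype replicate 1 the difference of 0.0748 points became -0.0784. Between the genotypes, the mean share under isotype was 0.196% in B2m-null and 0.296% in control tumours (exact permutation p = 0.246), and under CD40 it was 0.163 points higher in B2m-null tumours (exact permutation p = 0.200, where the lowest possible is 0.0667). Without B2m-null isotype replicate 1 the first of these turned to 0.0532 points higher in B2m-null tumours. None of the 4 comparisons passed an adjusted p of 0.05.

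**Figure D2:**
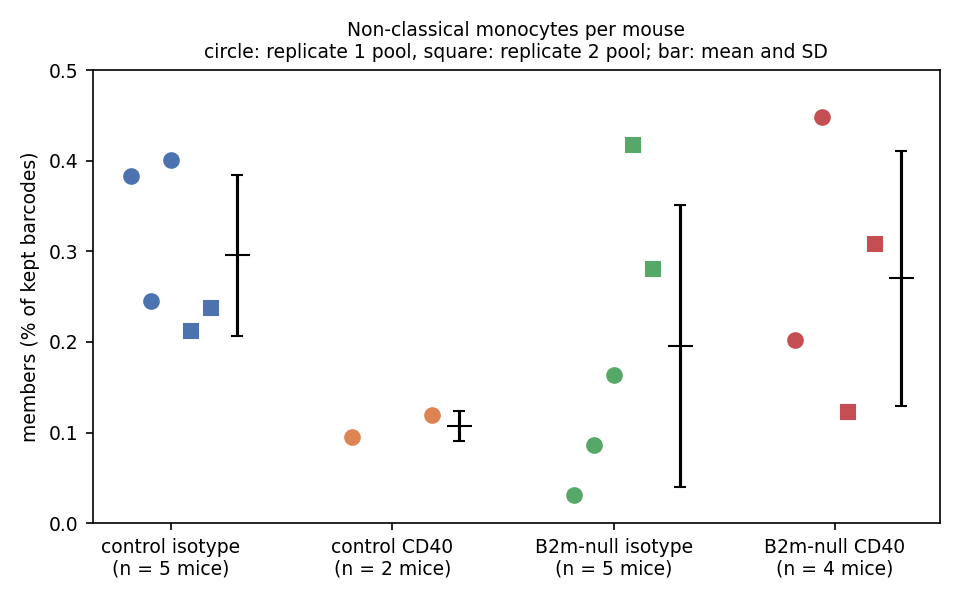
Non-classical monocytes as a percentage of kept barcodes, by mouse (points: circles for replicate 1 pools, squares for replicate 2 pools), with the mean and SD of each of the 4 groups. The control CD40 points are mice of the single pool that was run on both libraries; they lie at 0.0955% and 0.119%, below all 5 control isotype mice, while the B2m-null groups overlap.

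The second question was what sets these cells apart from the monocytes and macrophages beside them. Classical monocytes were taken as barcodes without Ace or Treml4 that held Csf1r, Chil3 and Vcan and passed the same limits on Nos2, Flt3, Cd3 and C1q (1084 barcodes, median 3425 UMIs against 2794 in members). UMIs were summed per mouse and cell set in the 9 mice with at least 10 cells of each, and compared with the mouse as a block. By edgeR's quasi-likelihood test with Benjamini-Hochberg adjustment, 133 of 1850 genes were higher in non-classical monocytes (7.19%) and 109 lower (5.89%). Both sets were cut from the same cells by expression, so genes that travel with Ace, Treml4, Chil3 or Vcan are favoured, and the genes of the gates are left out of all counts. Of the higher genes 51, and of the lower ones 7, reached the expected count of 5 for testing only through the set where they were high.

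Genes known for the non-classical identity were higher. Of 15 tested genes of a list of 23, 13 passed the test upward and 0 downward, with a median log2 difference of 1.38 against -0.01 over all genes. Of these 13, 5 entered the test only through the non-classical cells, Adgre4 and Ear2 among them. The filter thus favoured their being higher. The list includes the 12 markers used above to check the name, of which Cx3cr1, Spn, Pglyrp1, Eno3 and Cd300e did not pass the filter on low counts. Adgre4 had levels of 109, 187 and 755 CPM (lowest, median and highest of 9 mice) in non-classical and 0, 17.5 and 92.1 CPM in classical monocytes. Every non-classical value lay above the classical range, and the log2 difference was 3.47 (SE 0.27, adjusted p = 4.29e-07). Ear2 had 66.1, 187 and 482 CPM against 0, 13.9 and 46.1 CPM, a log2 difference of 3.31 (SE 0.37, adjusted p = 1.55e-05), again without overlap. Gngt2 had 537, 790 and 1835 CPM against 110, 146 and 345 CPM, at 2.54 (SE 0.15, adjusted p = 6.98e-09). Nr4a1, the transcription factor on which these cells depend, had 229, 658 and 1274 CPM against 58.3, 334 and 379 CPM, with overlapping ranges and a log2 difference of 1.11 (SE 0.21, adjusted p = 0.00233).

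Among 9 tested transcription factors of myeloid cells, 4 were higher and 0 lower. They were Nr4a1, Pou2f2 (log2 difference 2.06), Klf2, a factor of quiescent leukocytes (1.37), and Spi1, which encodes PU.1 (0.50) and passed in 5 of 9 fits that left out a mouse. Of these 4 factors, 1 entered the test only through the non-classical cells. Adhesion and migration genes split. Of 14 tested, 6 were higher and 3 lower, with the chemokine receptor Ccr2 (-1.18) and the integrin chain Itgam (-0.62) among the lower ones. Of the 6 higher ones, 2 entered the test only through the non-classical cells. Itgal, the alpha chain of LFA-1, had 258, 477 and 1122 CPM against 66.2, 114 and 276 CPM, and a log2 difference of 2.03 (SE 0.22, adjusted p = 1.16e-05). Itga4 (1.44), Cxcr4 (1.32), Selplg (0.78), Itgb1 (0.64) and Pecam1 (2.83) were also higher. Pecam1 fell under the filter on low counts once the 3 stromal barcodes were left out, so whether its call holds without them was not tested.

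Markers of classical monocytes gave 5 lower genes and 1 higher of 11 tested. Ly6c2 (-1.54), the adhesive glycoprotein gene Fn1 (-2.33), the coagulation factor gene F13a1 (-1.49), Ccr2 and Ms4a4c (-0.65) were lower, and Ifitm6 was higher (0.65), which DESeq2, the isotype mice alone and members without transcripts of other cell types did not give. Outside the genes of the gates, the 1 gene that passed downward without overlap between the cell sets was S100a10, which encodes an annexin partner. It had 173, 600 and 1003 CPM against 1220, 1544 and 1951 CPM, at -1.26 (SE 0.17, adjusted p = 0.000111).

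Fc receptor genes split. Fcgr4 was higher (0.99) while Fcgr1 (-0.86), Fcgr2b (-0.67) and Fcgr3 (-0.55) were lower, of 5 tested. In members without transcripts of other cell types 1 was higher and 0 lower of 5, and Fcgr3 passed in 3 of 9 fits that left out a mouse and stood at 0.05 after thinning to 2000 UMIs. Inflammatory chemokine and cytokine genes gave 0 higher and 5 lower of 14. Ccl2, the ligand of CCR2, had 281, 1052 and 2156 CPM against 1799, 4227 and 6056 CPM, and fell by 1.68 on the log2 scale (SE 0.20, adjusted p = 2.51e-05). Ccl12 (-2.75), Ccl7 (-1.78), Ptgs2 (-1.10) and Cxcl2 (-0.91) were the others. Genes of tissue macrophages gave 0 higher and 5 lower of 15, among them the mannose receptor Mrc1 (-2.47) and the matrix protein gene Spp1 (-1.90). Mrc1, with an expected count of 4.65 in a median member sum, entered the test only through the classical monocytes. Glycolysis genes gave 0 higher and 6 lower of 15, with Pkm (-0.74), Pgk1 (-0.70), Gapdh (-0.64) and Pgam1 (-0.62).

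MHC class I genes gave 4 higher and 0 lower of 14: H2-Q7 (1.07), H2-K1 (0.59), H2-D1 (0.55) and B2m (0.34). B2m had 2405, 3739 and 5870 CPM over the 9 mice in non-classical and 2089, 3158 and 4614 CPM in classical monocytes, with overlap. Class II genes gave 1 lower, H2-DMa (-0.75), of 6. No gene of 12 tested on the interferon-gamma list passed in either direction, and of 13 genes on the type I interferon list Isg15 (-0.75) and Slfn5 (-0.64) were lower. In 9 fits that each left out a mouse, Slfn5 passed in 1, Isg15 in 3 and B2m in 5, and 0 of 7 type I interferon genes were lower in members without transcripts of other cell types. In the list of CD40 signalling and costimulation, 1 of 10 passed, Traf1 (0.75).

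Without the 3 stromal barcodes, 163 genes were higher and 110 lower, and 212 of the 242 genes called with them were called in both. The identity list then had 15 of 16 tested genes higher, the glycolysis list 6 of 15 lower and the chemokine list 1 higher and 5 lower of 14. Members were also restricted to barcodes with no UMI of T, natural killer, B, neutrophil, melanoma or stromal genes, with the pool as the unit. This left 69 genes higher and 57 lower, and 9 of 11 tested identity genes higher. Col4a1 (5.37) and Sparc (4.03), basement membrane and matrix genes, passed among all members, but each stood higher in 2 of 9 mice. With each cell thinned to 2000 UMIs, which left 6 mice, 29 genes were higher and 42 lower of 660 tested, and without B2m-null isotype replicate 2 mouse 1 the counts were 84 and 73. In the isotype mice alone 97 were higher and 64 lower, with 12 of 15 identity genes higher but only 2 of 15 glycolysis genes lower, and in the CD40 mice alone 3 and 5.

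**Figure D3:**
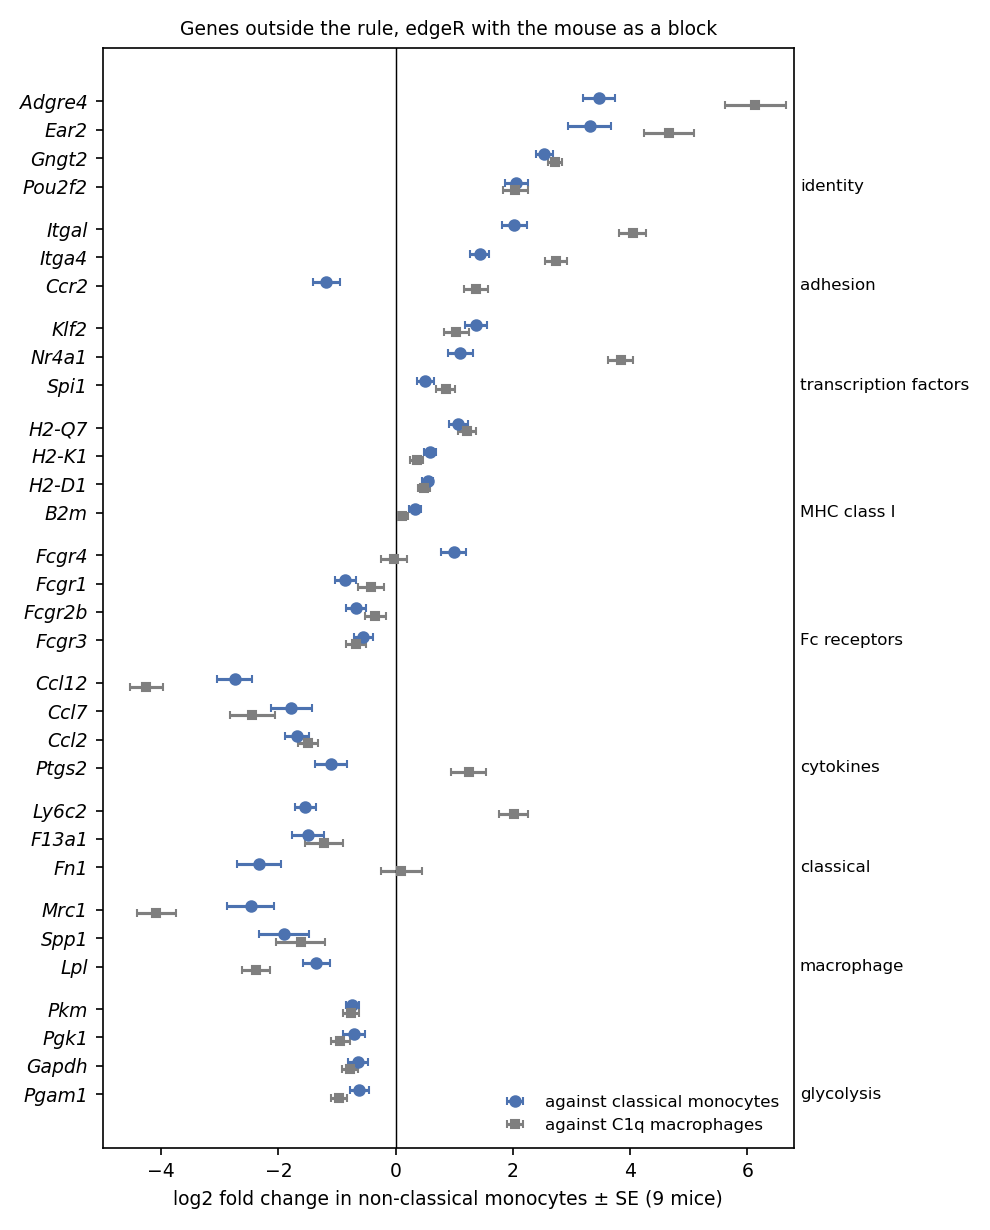
Log2 differences ± SE of named genes between non-classical monocytes and classical monocytes or C1q macrophages, over 9 mice. The 4 identity genes lie to the right of 0 in both comparisons. Adgre4 and Ear2 among them entered both tests only through the non-classical cells, which favoured their being higher. Ccl12 lies to the left at -2.75 and -4.25, and Ccr2 (-1.18 and 1.38) and Ly6c2 (-1.54 and 2.01) lie on opposite sides. Both comparisons share the members' sums and are not independent.

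C1q macrophages were barcodes with more than 5 UMIs of C1q that otherwise met the same limits (18176 barcodes, median 6700 UMIs). This gap in depth exceeds that to classical monocytes. Of 1828 genes, 466 were higher in non-classical monocytes (25.5%) and 449 lower (24.6%) by the same edgeR test, or 50.1% in all. A gene was tested when the mean of both sets' levels gave an expected count of 5 in a median member sum. Of the lower genes 107 fell under it on the members' values alone, and of the higher genes 161 on the macrophages' values alone, so these entered only through the set where they were high and had to differ. Without the stromal barcodes the counts were 477 and 454. The members' sums are shared by both comparisons, and the differences are therefore not independent.

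The identity list gave 12 higher and 0 lower of 15, with a median of 2.05 against -0.02 over all genes. Without stromal barcodes it gave 13 higher and 1 lower of 16, and without transcripts of other cell types 9 higher and 1 lower of 12. The lower gene in both was Fabp4, a fatty acid binding protein gene. Of the 12, 7 entered the test only through the non-classical cells, Adgre4, Ear2, Itgal and Nr4a1 among them. The filter thus favoured their being higher. Adgre4 (log2 difference 6.14) and Ear2 (4.67) led the list, and Itgal stood at 4.04. Nr4a1 had 229, 658 and 1274 CPM against 26.8, 40.4 and 59.3 CPM, without overlap, at 3.84 (SE 0.22, adjusted p = 2.57e-09). Genes that classical monocytes also express were higher too, 9 of 12 with 1 lower. Of these 9, 5 entered the test only through the non-classical cells. Plac8, a gene of circulating monocytes, had 1998, 4113 and 6495 CPM against 152, 295 and 524 CPM, at 3.74 (SE 0.20, adjusted p = 8.15e-10). Ly6c2 was higher by 2.01 and Ccr2 by 1.38, so these transcripts lay between the other cell sets. Of 13 chemokine and cytokine genes 5 were higher and 4 lower, the latter Ccl2, Ccl7, Ccl12 and Cxcl16. Among the higher ones Il1b, the interleukin-1 beta gene, had 268, 1158 and 2843 CPM against 74.2, 144 and 251 CPM, at 3.02 (SE 0.26, adjusted p = 2.19e-07).

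Genes of tissue macrophages were lower in 16 of 18 and higher in 0. Of these 16, 4 would have missed the expected count of 5 on the members' values alone. The chemokine gene Ccl8 had 0, 64.0 and 304 CPM against 2482, 3636 and 5797 CPM, without overlap, and was lower by a log2 difference of -5.12 (SE 0.34, adjusted p = 1.29e-08). Mrc1 (-4.08), Ms4a7 (-3.65) and Pf4 (-3.61), with 44, 38 and 113 member UMIs, were lower too. Mrc1 and Ms4a7, with expected counts of 4.65 and 4.02 in a median member sum, entered the test only through the macrophages. The folate receptor gene Folr2, Igf1 and Vcam1 passed downward with only 3, 4 and 13 member UMIs, and entered the same way. Of the cell cycle genes, Tuba1b (-1.51) and Pcna (-1.05) were lower. Stmn1 and Top2a also passed downward, but with 17 and 13 member UMIs over the 9 mice they entered the test only through the macrophages. A list of immediate early and heat shock genes was higher in 10 of 12, of which 1, Hspa8, is a heat shock gene and Ier2 (1.69), Btg2 (1.53) and Junb (1.19) are immediate early genes. In members without transcripts of other cell types 5 of the 12 were higher and 1, Hsp90aa1, lower, and DESeq2 gave 8 higher. Of CD40 and NF-kappa-B pathway genes 7 of 8 were higher, Nfkbia (1.30) among them. Of these 7, 3 entered the test only through the non-classical cells. Class II genes did not pass in either direction (0 of 6).

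The third question was what the cells did under anti-CD40. In B2m-null tumours the test compared 2 mice under CD40, 1 from each pool, with 2 under isotype, both from the second pool, in a fit over the 9 mice with at least 10 members. What is particular to that second isotype pool cannot be told apart from the isotype group in this test. Of 1918 genes, 5 were higher under CD40 (0.261%) and 1 lower (0.0521%), or 0.313% in all. In simulated data of this size the test recovered 0.5% of 2-fold and 49.5% of 4-fold changes, so only large differences could be seen.

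Cfb (chr17:34856374-34862518, minus strand) had 9.68 and 69.6 CPM under isotype and 1362 and 685 CPM under CD40, a log2 difference of 4.62 (SE 0.64, adjusted p = 0.00726). AW112010 (chr19:11047612-11055808, minus strand), an interferon-responsive transcript, had 106 and 89.5 CPM against 2169 and 2019 CPM, at 4.38 (SE 0.48, adjusted p = 0.00174). Ly6i, a Ly6 family gene, had 58.1 and 29.8 CPM against 780 and 509 CPM, at 3.82 (SE 0.51, adjusted p = 0.00726). In all 3 genes the lower CD40 mouse stood well above both isotype mice.

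Sod2, the mitochondrial superoxide dismutase gene, had 96.8 and 249 CPM under isotype and 1151 and 1194 CPM under CD40, at 2.71 (SE 0.44, adjusted p = 0.0181). Prdx5, a peroxiredoxin gene, had 862 and 567 CPM against 1971 and 3388 CPM, at 1.88 (SE 0.34, adjusted p = 0.0431). Gm42418, a gene model, was the lower one, with 4598 and 7405 CPM against 1799 and 1439 CPM, at -1.92 (SE 0.29, adjusted p = 0.0108). The same order was measured in other cells: T cells held 7659 and 9281 CPM under B2m-null isotype and 2036 and 2439 CPM under B2m-null CD40.

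Other cells of the same libraries showed the same order of Ly6i and Cfb. Classical monocytes held Ly6i at 21.4 and 42.3 CPM under B2m-null isotype and 788 and 294 CPM under B2m-null CD40, and Cfb at 34.2 and 62.9 against 511 and 268 CPM, without a test. A UMI of Ly6i was found in 40.8% of members and 3.08% of T cells, one of Cfb in 26.3% and 5.24%, one of Sod2 in 59.2% and 25.8%, one of Prdx5 in 86.4% and 41.8%, and one of Gm42418 in 97.7% and 96.9%. T cells, which have AW112010 in 97.3% of cells against 59.2% of members, held it at 2033 to 4361 CPM in every library, and its part as free RNA in the members was not tested. In 11 different fits that each left out a mouse or a library, AW112010 passed in 11, Ly6i in 9, Cfb in 8, Sod2 in 6, Gm42418 in 5 and Prdx5 in 3. AW112010 alone passed without B2m-null CD40 replicate 1 mouse 2 and without control isotype replicate 1. Without the 3 stromal barcodes, 9 genes were higher and 2 lower, including all 6. With the pool as the unit, which takes in both isotype pools, 13 genes were higher and 8 lower, including 5 of the 6.

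**Figure D4:**
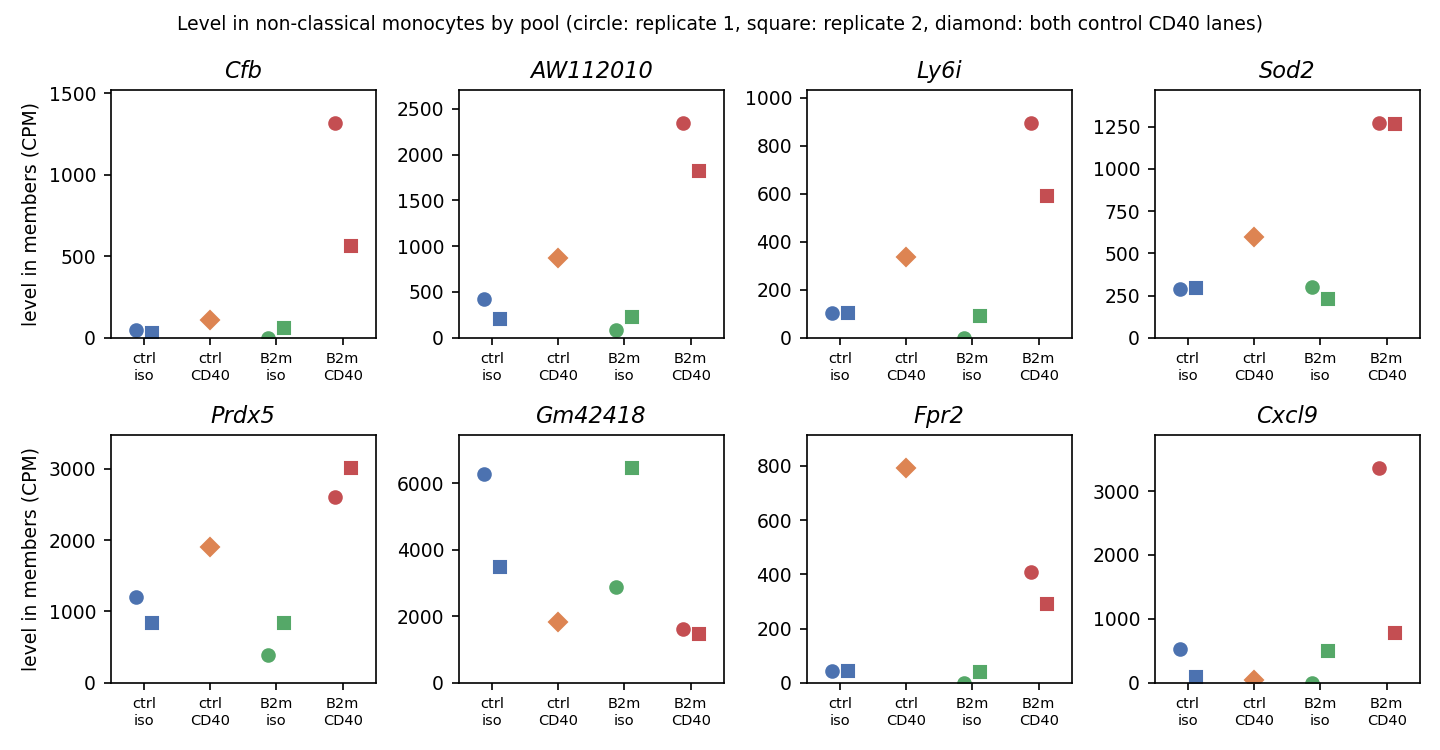
Levels in non-classical monocytes, in CPM, of the genes that passed under CD40 and of Cxcl9, by pool of the 4 groups (circles replicate 1, squares replicate 2, diamonds the 1 control CD40 pool). Cfb stands at 1320 and 562 CPM in the B2m-null CD40 pools and at most at 107 CPM in the other 5, while Fpr2 is highest in the control CD40 pool at 793 CPM.

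No gene of the interferon-gamma, class I and class II lists passed. Of 16 interferon-gamma list genes 15 had a positive difference, with a median of 1.34, and of 15 class I genes all had one, with a median of 1.20. Of 7 class II genes all had one as well, at 0.94, and of 13 type I interferon genes 10 had one, at 0.63, with none past the test. The median of all genes was -0.08. H2-K1 had 1.30 (adjusted p = 0.0897), H2-Q7 had 2.10 (adjusted p = 0.147) and Gbp2 had 1.94 (adjusted p = 0.204). Cxcl9, an interferon-gamma target on that list, is drawn beside them and did not pass (log2 difference 2.92, adjusted p = 0.274). The identity list had 5 positive differences of 21, with a median of -0.46 and none past the test, and Nr4a1 stood at -0.52 (adjusted p = 0.712, 95% interval -1.43 to 0.40).

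In control tumours the pool was the unit, since only 1 control CD40 mouse had at least 10 members, and the spread came from the other groups. Of 3039 genes 1 was higher (0.0329%) and 0 lower, with 260 at an unadjusted p under 0.05, while DESeq2 called 3. The gene was Fpr2 (chr17:17887824-17893952, plus strand), a formyl peptide receptor. Its pools held 43.0 and 44.2 CPM under isotype and 793 CPM under CD40, at 4.18 (SE 0.55, adjusted p = 0.00668). A UMI of Fpr2 was found in 31.5% of members and 2.07% of T cells. The neutrophil list stood at 205 and 63.7 CPM in the members of the control CD40 libraries and at 571 and 1209 CPM under control isotype, and its part in the result was not tested. The gene passed in 4 of 6 fits that left out a pool, and not without either control isotype pool. It did not pass without hashtag doublets, where 0 genes were called. In B2m-null tumours Fpr2 stood at 0 and 41.4 CPM under isotype and at 409 and 291 CPM under CD40.

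The genes that passed in B2m-null tumours were also measured in control tumours. Per pool, Cfb had 49.1 and 29.5 CPM under isotype and 107 CPM under CD40 (log2 difference 1.33, 95% interval -0.45 to 3.12). AW112010 had 424 and 206 CPM against 869 CPM (1.42, 0.53 to 2.31), and Ly6i had 104 and 103 CPM against 335 CPM (1.71, 0.50 to 2.92). Sod2 had 289 and 295 CPM against 595 CPM (1.05, 0.32 to 1.79), Prdx5 had 1198 and 840 CPM against 1906 CPM (0.91, 0.17 to 1.66), and Gm42418 had 6288 and 3493 CPM against 1814 CPM (-1.41, -2.31 to -0.51). These unadjusted 95% intervals take the normal multiple of the SE, which makes no allowance for the few pools. They hold no spread of the control CD40 pool. None of these genes passed after adjustment. On the same lists none passed here either: 8 of 19 interferon-gamma genes had a positive difference (median -0.22), 9 of 17 class I genes (0.04), 1 of 7 class II genes (-0.14) and 0 of 16 type I interferon genes (-1.34), against -0.06 over all genes. The difference of the CD40 effects between the genotypes was tested directly. By edgeR 0 genes passed, with 233 at an unadjusted p under 0.05, and DESeq2 called 2. For Cfb it was 2.96 (adjusted p = 0.457) and for AW112010 2.07 (adjusted p = 0.440). The simulation recovered 8% of 4-fold differences here, so most differences of that size would go unseen.

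The last question was whether the tumour's B2m loss went with other levels in the cells. Under isotype, edgeR called 0 of 1918 genes, 144 had an unadjusted p under 0.05, DESeq2 called 0 and limma-voom 1. All tested B2m-null mice came from 1 pool. The count was 31 without B2m-null isotype replicate 2 mouse 1, which leaves the mouse with the endothelial barcode alone in its group. B2m itself, in the members, stood at -0.39 (95% interval -0.95 to 0.17). The identity list had 1 positive difference of 21 (median -0.66) and class I 3 of 15 (-0.33), with none past the test, against 0.02 over all genes.

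Under CD40, 2 of 3039 genes were higher in B2m-null tumours (0.0658%) and 3 lower (0.0987%), against the single control CD40 pool of 65583 UMIs. That pool gives no spread of its own, so the SE and p-values assume that it varies like the pools of the other groups. The control CD40 pool is also the treated arm of the CD40 comparison in control tumours. Spp1, which encodes osteopontin, had 0 UMIs in the control CD40 pool and 509 and 2199 CPM in the B2m-null pools. With the pool set to 3 counts, the approximate upper 95% limit for a count of 0, it was at least 27.5-fold higher over both B2m-null pools, and at least 11.1-fold without B2m-null CD40 replicate 2 or 48.1-fold without replicate 1. These limits cover counting error only. Lgals1, the galectin-1 gene, had 76.2 CPM against 949 and 979 CPM, at 3.71 (SE 0.59, adjusted p = 0.0275). A UMI of Spp1 was found in 20.7% of members and 13.3% of T cells, and one of Lgals1 in 45.5% and 77.4%, so free RNA or, for Lgals1, T cell transcripts in the members cannot be told apart from their own.

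Over the lists, 1 of 21 identity genes (median -1.34), 10 of 12 classical (0.91), 15 of 19 macrophage (1.23), 16 of 19 interferon-gamma (1.91) and 16 of 16 type I interferon genes (1.90) had a positive difference, against 0.07 over all genes, and Spp1 was the 1 gene of these lists that passed. Other cell types' transcripts differed between the same libraries. Neutrophil genes summed to 205 and 63.7 CPM in the control CD40 libraries and 2455 and 77.5 CPM in the B2m-null ones, stromal genes to 0 and 0 against 2694 and 29.1 CPM, and megakaryocyte genes to 0 and 0 against 401 and 38.8 CPM. Their part in the result was not tested.

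Hspa1b, a heat shock gene, had 442 CPM in the control CD40 pool and 0 in both B2m-null pools, at least 34.3-fold lower in B2m-null tumours with those pools together set to 3 counts, or 15.2-fold and 19.1-fold with only the second or the first of them. A UMI of Hspa1b was found in 9.39% of members, 7.75% of T cells, 8.76% of classical monocytes and 12.2% of C1q macrophages. The part of free RNA in the members was not tested. Rel, an NF-kappa-B subunit, had 701 CPM against 92.6 and 116 CPM, at -2.68 (SE 0.48, adjusted p = 0.0439). Rpl37a, a ribosomal protein gene, had 4925 CPM against 1729 and 1560 CPM, at -1.51 (SE 0.26, adjusted p = 0.0439). All 5 values set 1 pool against 2. Without the stromal barcodes, 2 of which are in the first B2m-null CD40 pool, 30 genes were higher and 17 lower, including all 5. Other settings ended most or all of the calls: 0 genes passed with both Ace and Treml4 detected or without B2m-null isotype replicate 2, 0 of the 5 passed in members without transcripts of other cell types, and 1 gene was called without hashtag doublets. In 6 fits that each left out a pool, Hspa1b and Lgals1 passed in 5, Spp1 in 4, and Rel and Rpl37a in 3.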

How the data were processed

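The authors deposited UMI counts per gene and barcode, with hashtag counts in the same matrices, per the file headers. The libraries were 10x 3', per the labels, and the submitters' processing notes name mm10, Cell Ranger 3.0.0 and bcl2fastq 2.20.0.422. The labels list 3 hashtags per pool, whereas 2 files hold 3 and 6 hold 2. Each hashtag was taken as 1 mouse: a mixture model assigned barcodes that had 20 or more hashtag counts, at a posterior of 0.9, and barcodes with 2 hashtags over 2.5 SD were doublets, left out of sums by mouse. No other doublet caller was run.

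Members and gene lists were chosen with earlier results of these data known. Raw counts were summed by mouse (at least 10 members) or pool and tested in edgeR 4.0.16 (TMM, filterByExpr, quasi-likelihood test, Benjamini-Hochberg, adjusted p under 0.05). The comparisons between cell sets also required an expected count of 5 in a median member sum, added after simulated data showed false calls. Shares were tested by exact permutation over all arrangements. Intervals of log2 differences take the normal multiple of the SE, with no allowance for the few mice or pools. Named genes are the 6 largest changes each way among calls whose groups did not overlap with at least 20 counts (10 for cell sets), up to 4 of each list by adjusted p, and the rule's genes. Col4a1, Sparc and Col3a1 were named after their values were seen, as were the list members that complete a count. Positions are from GENCODE M21 on GRCm38, the build named in the notes. Some members of the lists are counted but not reported here by name.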

Additional observations from a re-analysis of the deposited data

Results flagged for a closer look

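Among the 4 control isotype mice with enough members, 1 mouse stood apart from the other 3 for 8 of the 119 gene and group combinations examined, a share close to the 1 in 20 that chance gives. The highest mouse held Gapdh at 598 CPM, H2-DMa at 576 CPM and Pgk1 at 854 CPM. It held Chil3 at 623 CPM and Fcgrt at 201 CPM. Igf1 and Vcam1 stood at 38.9 CPM and Wwp1 at 42.7 CPM in a mouse while the other 3 were at 0, which is 1, 1 and 2 UMIs. The high mouse was not the same one for every gene.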

How the results depend on the processing

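Between 8 and 52 members per library, and 1 to 21 per mouse, limit every value, and few results between groups were stable. Below, a lane stands for a pool, with both control CD40 libraries summed. For CD40 in B2m-null tumours the 6 calls became 126 without a filter on low counts, 12 by DESeq2, 26 by limma-voom with the lane as a block, 23 without limits on Nos2 and C1q, 11 after thinning, 15 with at least 5 members, 21 with the lane as the unit, 11 and 42 (by mouse and by lane) without stromal barcodes and 2 with separate hashtag covariances. Leaving out a mouse or pool gave 1 to 34, the highest without B2m-null isotype replicate 2 mouse 1. For genotype under isotype 0 calls became 87 without a filter, 1 by limma-voom and by lane, 2 with at least 5 members, 3 by lane without stromal barcodes, and 0 to 31 on leaving out a mouse or pool. For CD40 in control tumours 1 call became 14 without a filter, 3 by DESeq2, 4 without limits on Nos2 and C1q, 5 after thinning, 11 without stromal barcodes, 0 without hashtag doublets, and 0 to 49 on leaving out a pool, the highest without B2m-null CD40 replicate 2. For genotype under CD40 5 calls became 67 without a filter, 0 with both Ace and Treml4 detected, 10 after thinning, 1 without transcripts of other cell types and without hashtag doublets, 47 without stromal barcodes, and 0 to 85 on leaving out a pool, again highest without B2m-null CD40 replicate 2. For the difference of the CD40 effects 0 calls became 12 without a filter, 2 by DESeq2 and without stromal barcodes, and 0 to 15 on leaving out a pool. The cause of these shifts was not tested.

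Against classical monocytes the 242 calls became 585 without a filter, 413 by lane, 71 after thinning, 161 in isotype mice, 8 in CD40 mice, 126 by lane without transcripts of other cell types and 157 to 233 on leaving out a mouse; Fcgr3 turned to 0.050 after thinning. Against C1q macrophages the 915 calls became 2918 without a filter, 2938 with filterByExpr alone, 1474 by lane, 258 after thinning, 172 in CD40 mice, 573 by lane with both genes detected, 385 by lane without transcripts of other cell types and 738 to 889 on leaving out a mouse. Thinning and the restrictions leave fewer mice, cells or genes. Over single genes, 2067 values kept their direction and side of the threshold, 248 lost the call and 1 turned.

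For the share, CD40 in control tumours was 0.0041 points after thinning and -0.235 to -0.117 on leaving out a mouse or library. CD40 in B2m-null tumours was -0.015 with both genes detected, -0.056 on the log2 scale by edgeR on member numbers, and -0.0784 to 0.177 on leaving out a mouse or library. Genotype under isotype ranged from -0.202 to 0.0532, and under CD40 from 0.104 to 0.218. The other 83 values kept their sign.

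Pool numbers recur between groups, but samples with the same number did not deviate together (r = 0.0013, -0.0133 and -0.122 over 3043 genes). With the pool number as a replicate block, 5, 0, 0, 5 and 0 genes were called for CD40 in B2m-null tumours, genotype under isotype, CD40 in control tumours, genotype under CD40 and the difference. Of the 6 calls for CD40 in B2m-null tumours 4 were shared, without Sod2 and Prdx5; Fpr2 was not called; and of the 5 for genotype under CD40 only Lgals1 and Hspa1b, 2 genes, were shared. The share differences with the block were -0.188, 0.0748, -0.100 and 0.163 with exact adjusted p of 0.444, 0.467, 0.444 and 0.444. A minimum of 20 members left too few mice for a value. By mouse, no value could be had with both genes detected or without transcripts of other cell types, nor after thinning for genotype under isotype, and limma-voom with the lane as a block was not run where the pool is the unit.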
